A study of Mus musculus with 6 samples.

Results

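Of the genes measured in obstructed mouse kidneys, 9 encode fibrillins and elastic fibre proteins: the fibrillins Fbn1 and Fbn2, the microfibril-associated proteins Mfap2, Mfap5 and Mfap4, the elastin gene Eln, the fibulins Fbln5 and Efemp2, and Emilin1. They were picked out of the 34714 rows of the count table by gene symbol. All 9 were in the table and all 9 passed the filter on low counts, which left 18927 genes to test. The genes were chosen by function, with earlier results of the same knockout and wild-type comparison known, so their differences between the groups are a description and not independent evidence.

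Elastic fibres let arteries, skin and lung stretch and recoil. They are built on microfibrils, whose backbone is made of the large glycoproteins fibrillin-1 and fibrillin-2. The small microfibril-associated glycoproteins bind along that backbone, elastin is deposited on it with the help of fibulins, and lysyl oxidases then crosslink the elastin. Microfibrils also hold latent TGF-β in the matrix, and in the kidney they are found around vessels, in glomeruli and in the scarred interstitium.

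The data are read counts from RNA sequencing of 6 whole mouse kidneys, 3 from Mir92b knockout mice and 3 from wild-type mice. The knockout mice lacked the microRNA gene Mir92b in every tissue (miR-92b-/-, strain C57BL/6JGpt-Mir-92bem22Cd549/Gpt), and the wild-type mice were C57BL/6J. The strain labels thus differ along with the genotype, and a difference of strain or colony cannot be told apart from the knockout here. Mice of both groups were male, were operated on at 8 weeks of age and underwent unilateral ureteral obstruction (UUO), a ligation of the left ureter that blocks urine flow and scars the kidney. Kidneys were collected at day 10. Column names and treatment labels give all 6 as UUO kidneys, although the protocol text calls ligated kidneys controls without fibrosis. Kidneys after sham surgery were not analysed here. The labels name neither the animal behind each library nor littermates, so p-values measure the spread between these libraries, which may be technical.

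Library totals were 44476507 to 50769801 counts in the knockout and 38738204 to 51932509 counts in the wild type. Proximal tubule markers, which check the labelled tissue, summed to at least 783 CPM in each knockout library and 1320 CPM in each wild-type library (CPM, counts scaled to library size with TMM factors). The table holds no microRNA row, so the deletion itself could not be checked. Skeletal muscle markers summed to 0.923 to 1.11 CPM in the knockout and 5.40 to 5.95 CPM in the wild type, and Myh1 and Myh4 were at 0 in all knockout libraries. Long transcripts took a larger share in the knockout. For this, each gene's log2 CPM was taken as its deviation from its mean over the 6 libraries and fitted on log10 transcript length. The slope, which is relative to the other libraries, was 0.0879, 0.335 and 0.173 in knockout replicates 1, 2 and 3. In wild-type replicates 1, 2 and 3 it was -0.353, 0.0281 and -0.271.

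The deleted microRNA and the sites it could pair with are shown first, because 2 of the 9 genes carry a match of 7 or 8 bases and Mfap5 one of 6. Among all genes of the table with an annotated 3' UTR, 12.9% carry a match of 7 or 8 bases and 24.9% one of 6 or more. A microRNA recognises its targets mainly through its seed, bases 2 to 8, which pairs with a complementary stretch of the 3' UTR. The mature sequences below are from RefSeq (GRCm38.p6), with the seed in capitals.

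mmu-miR-92b-3p: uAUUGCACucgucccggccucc

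mmu-miR-92a-3p: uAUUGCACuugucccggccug

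mmu-miR-25-3p: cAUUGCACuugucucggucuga

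mmu-miR-32-5p: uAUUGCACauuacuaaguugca

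All 4 carry the same seed, and 6 mature names in the RefSeq table share it. The others are mmu-miR-363-3p and mmu-miR-367-3p, so seed matches are shared with microRNAs encoded by other genes. The mature mmu-miR-92b-3p itself lies on chromosome 3 (89227126 to 89227147, minus strand, GRCm38).

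The longest annotated 3' UTR of Fbn1 (GENCODE M21, 992 nt) held 1 full 8mer match, GTGCAATA, which starts at position 809 of the 3' UTR. It lies at chr2:125300759-125300788 (GRCm38, minus strand) and reads as follows, with the match in capitals.

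Fbn1 3' UTR site: tcacacagcatGTGCAATAcgccaaaatca

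Of 20182 genes in the table with an annotated 3' UTR, 2.32% held an 8mer match. Fbn1 was the only one of the 9 genes with one. Fbn2 held 1 match of the 7mer-A1 type (TGCAATA) at position 1612 of a 1635-nt 3' UTR, close to its annotated end. Of all genes, 12.9% held an 8mer or either 7mer type (GTGCAAT or TGCAATA). Mfap5 held 1 6mer (TGCAAT), and Mfap2, Mfap4, Eln, Fbln5, Efemp2 and Emilin1 held 0 matches of these types. A match is a stretch of letters and not a shown binding site, and only the longest annotated 3' UTR was searched.

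The fibrillins were the members with the largest differences between the groups. Both were measured at more than double the wild-type level on average in knockout kidneys, and no knockout library lay as low as a wild-type library. Fbn1 (chromosome 2, 125300594 to 125507993, GRCm38, here and below from GENCODE M21) is the main fibrillin of adult tissue. It measured 98.1, 178 and 195 CPM in knockout replicates 1, 2 and 3, against 70.1, 78.5 and 57.4 CPM in wild-type replicates 1, 2 and 3. Knockout replicate 1 lay nearest to the wild type, and knockout replicates 2 and 3 well above it. The means were 157 ± 51.8 CPM in the knockout and 68.7 ± 10.6 CPM in the wild type (SD, n = 3 each), 2.29-fold apart. On the log2 scale, knockout over wild type, this was 1.19 ± 0.26 (SE), and the quasi-likelihood test of edgeR gave an adjusted p of 0.627 over all tested genes.

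Fbn2 (chromosome 18, 58008623 to 58210487), a fibrillin made mostly during development, was far less abundant and the steadiest of the 9 in the wild type. It measured 10.95, 10.93 and 15.5 CPM in knockout replicates 1, 2 and 3, against 5.46, 5.20 and 5.11 CPM in wild-type replicates 1, 2 and 3. Knockout replicates 1 and 2 were level, replicate 3 was higher, and all 3 lay clear of the wild type. The counts behind these values were 480 to 779 reads in the knockout and 232 to 257 reads in the wild type. The means were 12.5 ± 2.62 CPM in the knockout and 5.25 ± 0.183 CPM in the wild type (SD, n = 3 each), 2.37-fold apart, or 1.24 ± 0.21 on the log2 scale (SE; edgeR, adjusted p = 0.627). The gene overlapping it on the opposite strand, Gm26507, had at most 0.199 CPM.

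The fibrillin transcripts are the longest of the 9, at 11971 nt for Fbn1 and 11041 nt for Fbn2, and the length trend of the libraries runs the same way as their differences. After removal of that trend, the log2 fold changes were 0.99 for Fbn1 and 1.04 for Fbn2. Fbn2 over Fbn1 in CPM ran from 0.0613 to 0.112 in the knockout and from 0.0662 to 0.0889 in the wild type, and the groups overlapped.

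**Figure D1:**
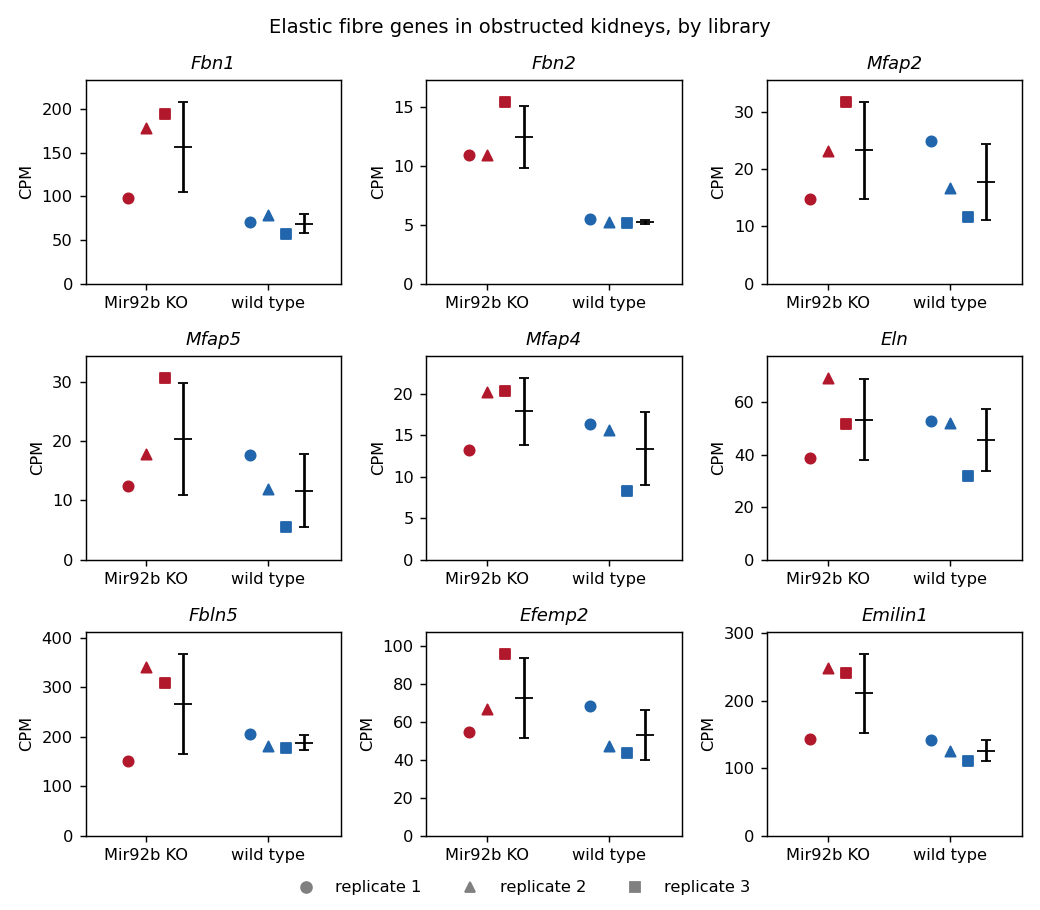
CPM of each gene (y axis, TMM-scaled counts, starting at 0) in the 3 Mir92b knockout libraries (left, red) and the 3 wild-type libraries (right, blue). Marker shape gives the replicate number, and the black bar is the mean with its SD. The groups are apart for Fbn1, Fbn2 and Emilin1, and knockout replicate 1 is the lowest knockout library in every panel but that of Fbn2, where it and replicate 2 are level at 10.95 and 10.93 CPM.

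Emilin1 (chromosome 5, 30913402 to 30921277) encodes an elastin-microfibril interface protein, which in mice restrains the processing of TGF-β. It measured 144, 249 and 241 CPM in knockout replicates 1, 2 and 3, against 141, 125 and 111 CPM in wild-type replicates 1, 2 and 3. The groups did not overlap, but knockout replicate 1 exceeded wild-type replicate 1 by a margin much smaller than the SD of either group. The means were 211 ± 58.5 CPM in the knockout and 126 ± 15.2 CPM in the wild type (SD, n = 3 each). On the log2 scale they differed by 0.75 ± 0.23 (SE; edgeR, adjusted p = 0.627), or 0.69 after removal of the length trend.

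The microfibril-associated glycoproteins overlapped between the groups. Mfap2 (MAGP-1, on chromosome 4, 141010418 to 141015984) binds fibrillin and growth factors of the TGF-β family. It measured 14.8, 23.3 and 31.8 CPM in knockout replicates 1, 2 and 3, against 24.9, 16.7 and 11.6 CPM in wild-type replicates 1, 2 and 3. Knockout replicate 1 lay below 2 of the wild-type libraries. Its log2 fold change was 0.39 ± 0.34 (SE; edgeR, adjusted p = 0.726), and -0.13 without replicate 3 of either group.

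Mfap5 (MAGP-2, chromosome 6, 122505845 to 122529290), its paralogue, varied most among the 9. It measured 12.3, 17.9 and 30.7 CPM in knockout replicates 1, 2 and 3, against 17.6, 11.9 and 5.42 CPM in wild-type replicates 1, 2 and 3. The highest library exceeded the lowest by 2.49 times within the knockout and by 3.24 times within the wild type. The log2 fold change of 0.80 ± 0.46 (SE; edgeR, adjusted p = 0.645) was 0.04 without replicate 3 of either group.

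Mfap4 (chromosome 11, 61485431 to 61488900) encodes a fibrinogen-related protein that binds elastin and fibrillin-1. It measured 13.3, 20.2 and 20.3 CPM in knockout replicates 1, 2 and 3, against 16.3, 15.6 and 8.32 CPM in wild-type replicates 1, 2 and 3. Its log2 fold change was 0.42 ± 0.29 (SE; edgeR, adjusted p = 0.672), and 0.07 without replicate 3 of either group. Mfap4 overlaps Mapk7 on the opposite strand, and whether counting used strand is not given in the sources used here. Mapk7 itself stood at -0.04 on the log2 scale.

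Elastin itself differed least. Eln (chromosome 5, 134702593 to 134747323) encodes the tropoelastin monomer. It measured 39.0, 69.5 and 52.0 CPM in knockout replicates 1, 2 and 3, against 52.8, 52.1 and 32.01 CPM in wild-type replicates 1, 2 and 3. The groups overlapped widely, with the lowest knockout library below 2 wild-type libraries. The difference of 0.23 ± 0.26 on the log2 scale (SE; edgeR, adjusted p = 0.784) was -0.01 without knockout replicate 2. The antisense gene Gm30003, which overlaps Eln, had at most 1.63 CPM.

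The fibulins stood between elastin and the fibrillins. Fbln5 (fibulin-5, chromosome 12, 101746565 to 101819055) links elastin to cells through integrins and is needed to assemble elastic fibres in mice. It measured 152, 341 and 308 CPM in knockout replicates 1, 2 and 3, against 206, 181 and 177 CPM in wild-type replicates 1, 2 and 3. Knockout replicate 1 was the lowest of all 6 libraries and knockout replicates 2 and 3 were the highest. Fbln5 stood at 0.51 ± 0.29 on the log2 scale (SE; edgeR, adjusted p = 0.641), and at 0.79 without knockout replicate 1. It stood at 0.29 without knockout replicate 2, 0.35 without replicate 3 of either group and 0.37 after removal of the length trend.

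Efemp2 (fibulin-4, chromosome 19, 5473954 to 5482517) brings lysyl oxidase to elastin. It measured 54.8, 66.6 and 95.8 CPM in knockout replicates 1, 2 and 3, against 68.2, 47.3 and 43.4 CPM in wild-type replicates 1, 2 and 3. The groups overlapped, with knockout replicates 1 and 2 below wild-type replicate 1. Efemp2 stood at 0.45 ± 0.25 on the log2 scale (SE; edgeR, adjusted p = 0.641), and at 0.07 without replicate 3 of either group. Efemp2 overlaps Mus81 on the opposite strand, which stood at -0.21 on the log2 scale.

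**Figure D2:**
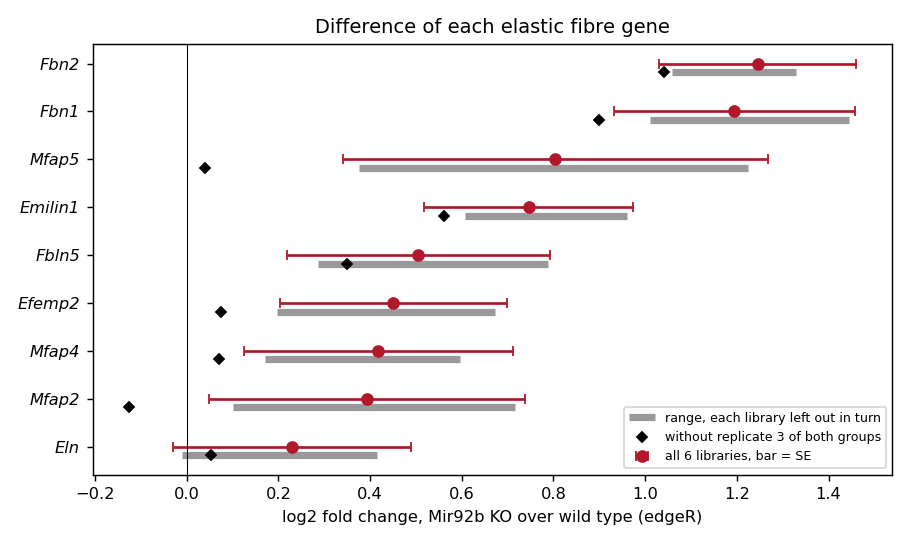
Log2 fold change of each gene, Mir92b knockout over wild type (x axis; edgeR). Red points with bars are the estimates from all 6 libraries with their SE, grey bars span the estimates with each library left out in turn, and black diamonds leave out replicate 3 of both groups. Fbn1 and Fbn2 stay at 0.90 or above in all of them, whereas Mfap2 is at -0.13 without replicate 3 of both groups and Eln at -0.01 without knockout replicate 2.

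Read against all genes, edgeR called 0 of the 9 at an adjusted p under 0.05, as it called 0% of all tested genes higher and 0% lower in the knockout. At an unadjusted p under 0.05, edgeR listed 829 genes higher (4.38% of those tested) and 666 lower, and 3 of the 9, Fbn1, Fbn2 and Emilin1, were among the higher ones. All 3 knockout libraries lay above all 3 wild-type libraries for 8.95% of tested genes, and for the same 3 members. All 3 lay below for 7.2% of tested genes and for 0 members. The log2 fold change was above 0 for all 9 members and for 47.7% of tested genes, and its median was 0.51 over the members and -0.02 over all tested genes. The median of the members ran from 0.38 without knockout replicate 3 to 0.79 without knockout replicate 1, and was 0.07, with 8 of 9 above 0, without replicate 3 of either group. The DESeq2 Wald test called 34 genes higher (0.18% of those tested) and 28 lower, and 2 of the 9 were among the higher ones. Fbn2 had a DESeq2 adjusted p of 0.000155 and Fbn1 one of 0.0188. Over all alternatives the adjusted p ran from 0.000155 to 0.971 for Fbn2 and from 0.0188 to 0.971 for Fbn1, and limma-voom with quality weights gave 0.207 and 0.264.

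The 9 genes shared part of their pattern over the libraries, but not one order. Between pairs of them, Pearson's r of log2 CPM over the 6 libraries ran from 0.325 (Eln with Fbn2) to 0.972 (Emilin1 with Fbn1). Knockout replicates 2 and 3 lay above the wild-type mean for all 9 genes, at a median of 0.77 and 0.91 on the log2 scale. Knockout replicate 1 lay above it for 6 of the 9, at a median of 0.08. Among the wild-type libraries, replicate 1 lay at 0.25, replicate 2 at 0.002 and replicate 3 at -0.26. Mfap2, Eln and Fbln5 were below the wild-type mean in knockout replicate 1, whereas Fbn1 and Fbn2 were above it, at 0.53 and 1.05.

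Markers of fibroblasts, the cells that make most interstitial matrix, were high and low in much the same libraries. The 11 markers, among them Pdgfra, Pdgfrb, Lum, Dpt and the fibrillar collagen genes, summed to 2405, 4510 and 6951 CPM in knockout replicates 1, 2 and 3, against 3775, 2416 and 1743 CPM in wild-type replicates 1, 2 and 3. Col1a1, Col1a2 and Col3a1, themselves matrix genes, made up most of each sum. The median over the markers, as log2 CPM minus the wild-type mean, was -0.05, 0.67 and 1.26 in knockout replicates 1, 2 and 3. In wild-type replicates 1, 2 and 3 it was 0.57, 0.002 and -0.52. All 11 had a log2 fold change above 0, with a median of 0.77. Leaving out knockout replicate 3 gave a median of 0.24, and leaving out both libraries numbered 3 gave 0.08, with 7 of 11 above 0. This was not particular to fibroblast markers. Endothelial markers summed to 212, 350 and 605 CPM in knockout replicates 1, 2 and 3, against 414, 234 and 221 CPM in wild-type replicates 1, 2 and 3. Smooth muscle and myofibroblast markers summed to 616, 987 and 1250 CPM in the knockout and 1200, 721 and 588 CPM in the wild type, in the same order. In both lists, as for fibroblast markers, knockout replicates 2 and 3 and wild-type replicate 1 had the highest sums. Leukocyte markers summed to 239.5 to 343 CPM in the knockout and 214 to 273 CPM in the wild type. Proximal tubule markers summed to 2311, 1563 and 783 CPM in knockout replicates 1, 2 and 3. In wild-type replicates 1, 2 and 3 they summed to 1320, 1434 and 2636 CPM. These markers were highest in wild-type replicate 3, where the 9 genes had their lowest median, at -0.26. Knockout replicate 1 came next, and there the median of the 9 genes was 0.08, the lowest of the knockout libraries but above the wild-type mean. Urothelium markers summed to 149 to 232 CPM in the knockout and 147 to 333 CPM in the wild type. Adipocyte markers summed to 297, 43.3 and 137 CPM in knockout replicates 1, 2 and 3, against 58.2 to 101 CPM in the wild type. None of these 7 marker lists had all knockout libraries above all wild-type libraries in its sum. The skeletal muscle markers given earlier did separate the groups, with 0.923 to 1.11 CPM in the knockout below 5.40 to 5.95 CPM in the wild type. The part of all these marked cell types in the differences of the 9 genes was not tested. In whole kidneys a change in the number of such cells and a change in the RNA per cell cannot be told apart.

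**Figure D3:**
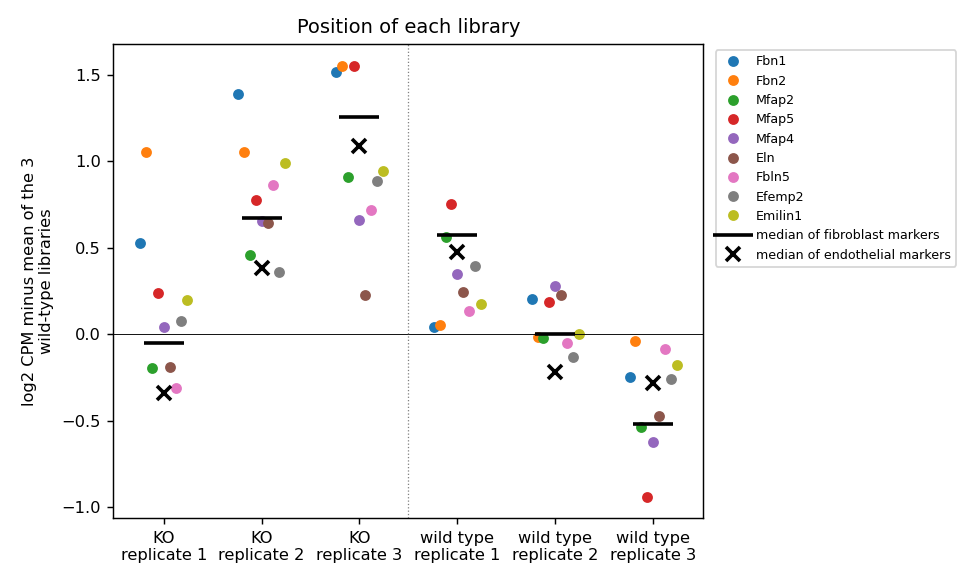
Log2 CPM of each of the 9 genes in each library (x axis) minus the mean of the 3 wild-type libraries (y axis, log2 scale), with the median of the fibroblast markers (black line) and of the endothelial markers (cross). Knockout replicates are on the left and wild-type replicates on the right. All 9 genes and both marker medians lie above the wild-type mean in knockout replicates 2 and 3 and below it in wild-type replicate 3. The distances vary: Eln is at 0.22 in knockout replicate 3, below its 0.25 in wild-type replicate 1. In wild-type replicate 3, Fbn2 is at -0.04 and Fbln5 at -0.09. Fbn2 is at 1.05 in knockout replicate 1, where the fibroblast marker median is -0.05.

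The ratios in this paragraph, chosen after the values were seen, compare members within a library and so do not depend on scaling between libraries. They were not corrected for the length trend, and the transcripts of Fbn1 (11971 nt) and Fbn2 (11041 nt) are longer than that of Eln (3853 nt). After removal of that trend, the log2 fold changes were 0.99 for Fbn1, 1.04 for Fbn2 and 0.17 for Eln. The ratio of Fbn1 to Eln in CPM was 2.52, 2.57 and 3.75 in knockout replicates 1, 2 and 3, against 1.33, 1.51 and 1.79 in wild-type replicates 1, 2 and 3. The groups were apart. Fbn2 over Eln was 0.281, 0.157 and 0.298 in knockout replicates 1, 2 and 3, against 0.103, 0.0997 and 0.1595 in wild-type replicates 1, 2 and 3, and the groups overlapped. Emilin1 over Eln ran from 3.58 to 4.63 in the knockout and from 2.41 to 3.46 in the wild type, apart, and Fbln5 over Eln from 3.89 to 5.93 in the knockout and from 3.48 to 5.52 in the wild type, with overlap. Relative to the summed CPM of Pdgfra and Pdgfrb, receptors that mark fibroblasts and pericytes, Fbn1 stood at 0.407, 0.402 and 0.432 in knockout replicates 1, 2 and 3, against 0.215, 0.326 and 0.295 in wild-type replicates 1, 2 and 3. Those groups were also apart. On the same measure Fbn2 ran from 0.0246 to 0.0454 in the knockout and from 0.0167 to 0.0263 in the wild type, and Emilin1 from 0.533 to 0.596 in the knockout and from 0.433 to 0.570 in the wild type, both with overlap. Eln on that measure stood at 0.1616, 0.1565 and 0.1152 in knockout replicates 1, 2 and 3, against 0.1617, 0.2166 and 0.1646 in wild-type replicates 1, 2 and 3, so the highest knockout library and the lowest wild-type library were level. Pdgfra and Pdgfrb are only 2 of the 11 fibroblast markers, and ratios to the others were not taken. Their log2 fold changes were 0.77 and 0.47, whereas those of the 11 markers ran from 0.19 to 1.15. Whether Fbn1 rose beyond fibroblast content was not tested.

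Within the groups some pairs of genes moved together closely. As a description over 6 libraries, each taken as its deviation from its own group mean, Pearson's r was 0.98 between Emilin1 and Fbln5 and 0.97 between Mfap2 and Mfap5. It was 0.955 between Efemp2 and Mfap2, 0.94 between Emilin1 and Fbn1 and 0.92 between Mfap4 and Eln. Fbn2 had the lowest values, at 0.08 with Eln and 0.38 with Mfap4, but was at 0.815 with Efemp2 and 0.68 with Mfap2. All these values come from the same libraries and share their depth and scaling.

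Levels between genes were compared per kilobase of the longest annotated transcript. Emilin1 and Fbln5 were the most abundant, at 54.8 ± 15.2 and 45.8 ± 17.4 CPM per kb in the knockout and at 32.7 ± 3.94 and 32.3 ± 2.73 CPM per kb in the wild type (SD, n = 3 each). Those neighbours differed by less than their spread in both groups. Efemp2 followed at 27.5 ± 8.02 CPM per kb in the knockout and 20.1 ± 5.05 CPM per kb in the wild type, then Mfap2 at 21.7 ± 7.95 and 16.5 ± 6.26 CPM per kb in the knockout and the wild type.

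Eln came next, at 13.9 ± 3.98 CPM per kb in the knockout and 11.8 ± 3.06 CPM per kb in the wild type. Fbn1 was at 13.1 ± 4.32 CPM per kb in the knockout, within the spread of Eln, and at 5.74 ± 0.886 CPM per kb in the wild type, below the lowest Eln library of 8.31. Mfap4 was at 10.1 ± 2.29 CPM per kb in the knockout and 7.58 ± 2.51 in the wild type, and Mfap5 at 8.15 ± 3.78 CPM per kb in the knockout and 4.67 ± 2.45 in the wild type. Fbn2 was lowest, at 1.13 ± 0.237 CPM per kb in the knockout and 0.476 ± 0.0165 in the wild type, apart from every other member. The longest transcript of Mfap5 retains an intron; with its longest coding transcript Mfap5 stood at 13.5 CPM per kb in the knockout and 7.73 in the wild type.

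**Figure D4:**
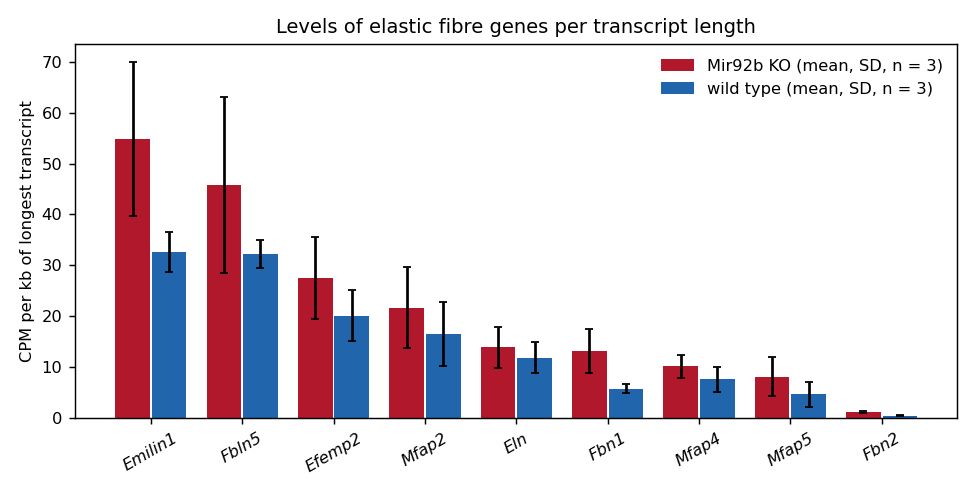
Mean CPM per kilobase of the longest annotated transcript (y axis, from 0) for each gene in Mir92b knockout kidneys (red, left bar) and wild-type kidneys (blue, right bar), with SD over 3 libraries. Genes are ordered by the knockout mean, from Emilin1 at 54.8 to Fbn2 at 1.13 CPM per kb.

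The wider elastic fibre pathway was described through lists of related genes. None of their genes passed the edgeR adjusted threshold, and their names here follow a fixed rule (the pair with the smallest p in each list) unless stated otherwise. Of 15 tested genes among other fibulins, emilins and microfibril-associated genes, 12 had a log2 fold change above 0, with a median of 0.48, which was 0.18 without knockout replicate 3. Mfap3 measured 64.9 ± 3.35 CPM in the knockout and 45.2 ± 6.94 CPM in the wild type (SD, n = 3 each). Bgn, the proteoglycan biglycan, measured 946 ± 218 CPM in the knockout and 558 ± 80.2 CPM in the wild type (SD, n = 3 each). The groups did not overlap for either gene, nor for Emilin2 or Hspg2 (perlecan), both named after their values were seen and at 0.94 and 0.73 on the log2 scale. After removal of the length trend, Emilin2 was at 0.875 and Hspg2 at 0.51. All knockout libraries lay above all wild-type libraries for these 4 of the 15 genes, and for 8.95% of all tested genes.

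The latent TGF-β binding proteins are fibrillin relatives that sit on microfibrils. All 4 had a log2 fold change above 0, with a median of 0.32. The median was 0.09 without wild-type replicate 3, and also 0.09, with 2 of 4 above 0, without replicate 3 of either group. After removal of the length trend it was 0.195. Ltbp2, which binds fibrillin-1 but not latent TGF-β, measured 97.7, 98.7 and 101 CPM in knockout replicates 1, 2 and 3, against 69.2, 56.7 and 48.5 CPM in wild-type replicates 1, 2 and 3. The knockout libraries lay within a narrow band above the wild type. For Ltbp2 the log2 fold change was 0.77 ± 0.15 (SE; edgeR adjusted p = 0.627, DESeq2 adjusted p = 0.0191), and 0.62 after removal of the length trend. Ltbp1, a carrier of latent TGF-β, was at 0.32 ± 0.26, at -0.01 without replicate 3 of either group and at 0.175 after removal of the length trend.

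Of the 6 genes of elastin crosslinking and copper supply, all were above 0, with a median of 0.49. That median was 0.20 without knockout replicate 3 and 0.85 without wild-type replicate 1, and without replicate 3 of either group it was 0.17 with 4 of 6 above 0. Loxl2 measured 118 ± 43.3 CPM in the knockout and 66.5 ± 13.4 CPM in the wild type, and Loxl1, the family member tied to elastin, 90.4 ± 35.8 CPM in the knockout and 53.9 ± 19.1 CPM in the wild type (SD, n = 3 each), both with overlap. Of 12 genes of fibrillin processing and ADAMTS-like proteins, 9 were above 0, with a median of 0.12, which was -0.08 without wild-type replicate 3, 0.26 without knockout replicate 3 and 0.01 after removal of the length trend. The smallest p-values were those of Thsd4 (ADAMTSL6), which binds fibrillin-1, at 0.73 ± 0.27 on the log2 scale, and of Furin, which cleaves profibrillin, at 0.39 ± 0.18.

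Among 10 integrin subunits that bind fibrillin, fibulin-5 or emilin-1, 9 were above 0, with a median of 0.49. Itgb5 measured 271, 319 and 304 CPM in knockout replicates 1, 2 and 3, against 192, 201 and 198 CPM in wild-type replicates 1, 2 and 3. The groups were far apart for their spread, at a log2 fold change of 0.60 ± 0.14 (SE; edgeR adjusted p = 0.627, DESeq2 adjusted p = 0.0284). Itga9, which pairs with Itgb1 and binds emilin-1, was at 0.72 ± 0.24.

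Of 8 tested enzymes that degrade elastin, 6 were above 0, with a median of 0.34, which was 0.18 without knockout replicate 3. The gelatinase Mmp2 measured 85.1 ± 21.5 CPM in the knockout and 44.5 ± 14.9 CPM in the wild type (SD, n = 3 each), without overlap, and Ctsk was at 0.47 ± 0.22 on the log2 scale. Mmp12, the macrophage elastase, named after its values were seen, was at -0.09 ± 0.22. Of 5 tested protease inhibitors 4 were above 0, with a median of 0.46 that ran from 0.14 without wild-type replicate 2 to 0.73 without knockout replicate 2. Timp2 measured 321 ± 65.1 CPM in the knockout and 190.0 ± 40.2 CPM in the wild type (SD, n = 3 each). Slpi, an elastase inhibitor, was at 1.96 ± 0.72 on the log2 scale but at 0.67 without replicate 3 of either group. Of the 3 genes of the elastin receptor complex 1 was above 0, with a median of -0.13. Neu1 was at -0.29 ± 0.22, Ctsa at -0.13 ± 0.16 and Glb1 at 0.06, and the median was 0.03, with 2 of 3 above 0, without replicate 3 of either group.

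**Figure D5:**
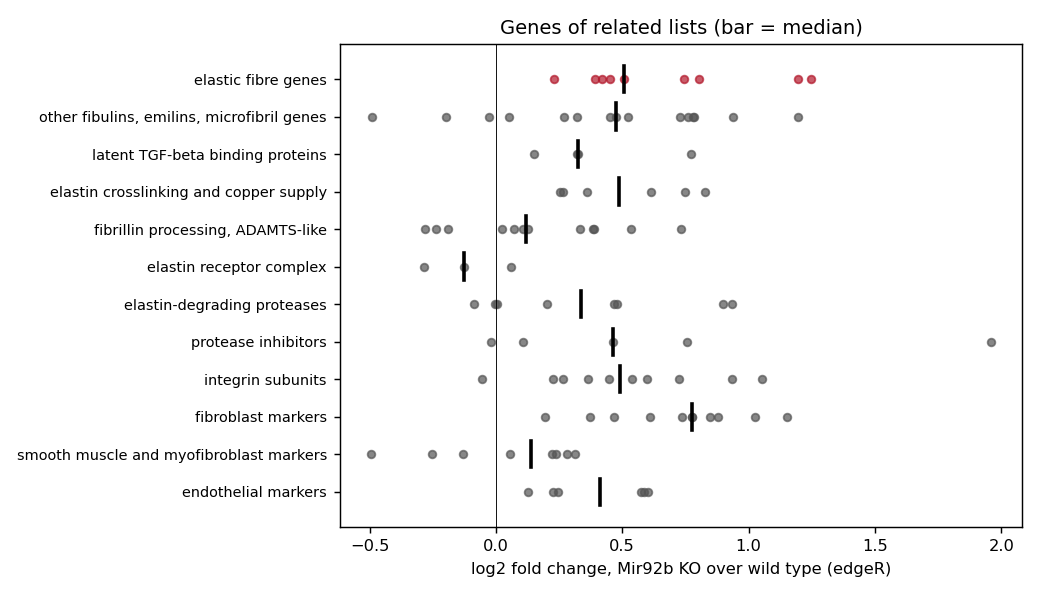
Log2 fold change, Mir92b knockout over wild type (x axis; edgeR), of each tested gene (points) in the 9 elastic fibre genes (red) and in related and marker lists (grey), with the median of each list as a bar. With all 6 libraries the medians are 0.51 for the elastic fibre genes, 0.77 for fibroblast markers and -0.13 for the elastin receptor complex.

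Genes with the library pattern most like that of the 9 were sought among 12327 genes outside the lists with a mean of at least 5 CPM. The measure was Pearson's r over the 6 libraries between log2 CPM and the mean standardised log2 CPM of the 9 genes. The 5 highest were Kctd10 (0.997), Frmd4a (0.995), Col5a1 (0.994), Clmp (0.993) and Adamts2 (0.993). Col5a1 encodes a chain of collagen V and Adamts2 removes the amino-terminal propeptide of fibrillar procollagens. Col5a1 measured 82.7, 193 and 247 CPM in knockout replicates 1, 2 and 3, against 124, 88.5 and 54.2 CPM in wild-type replicates 1, 2 and 3, with overlap. In all, 141 of the candidates had an r above 0.95.

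The promoters of Fbn1 and Emilin1 are shown because these genes were high together in knockout replicates 2 and 3 and each has a single start in the RefSeq table, which held promoters for 5 of the 9 genes. Each runs from 250 bases before to 50 after the start of transcription in the RefSeq table (GRCm38.p6). Both windows lie inside the gene as GENCODE M21 draws it, whose start is further upstream. Capitals mark a GC box (GGGCGG) or a SMAD element (CAGACA), searched on both strands together with the TATA box (TATAAA) and the AP-1 site (TGANTCA).

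Fbn1, chr2:125506389-125506688, minus strand: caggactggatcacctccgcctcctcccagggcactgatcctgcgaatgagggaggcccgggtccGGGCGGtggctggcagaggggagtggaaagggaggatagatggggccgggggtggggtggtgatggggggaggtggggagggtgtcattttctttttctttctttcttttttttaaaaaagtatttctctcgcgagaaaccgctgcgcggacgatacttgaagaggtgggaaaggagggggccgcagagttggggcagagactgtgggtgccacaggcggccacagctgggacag

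Emilin1, chr5:30913536-30913835, plus strand: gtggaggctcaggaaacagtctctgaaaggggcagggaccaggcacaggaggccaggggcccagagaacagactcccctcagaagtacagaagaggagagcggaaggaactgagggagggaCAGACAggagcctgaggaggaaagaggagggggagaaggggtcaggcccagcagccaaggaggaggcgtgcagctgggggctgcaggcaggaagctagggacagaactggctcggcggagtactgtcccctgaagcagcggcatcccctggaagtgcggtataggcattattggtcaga

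The Fbn1 promoter held 1 GC box, found in 35.7% of the 32851 promoters of the same length, and the Emilin1 promoter held 1 SMAD element, found in 21% of them. Neither held a TATA box (13.6% of all promoters) or an AP-1 site (7.81%). Both were rich in G and C, at 60.3% for Fbn1 and 61.7% for Emilin1, against a median of 52.7% over all promoters. These are letter matches in one window, and nothing was measured at the promoters.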

How the data were processed

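Total RNA from 6 obstructed kidneys was made into libraries with an mRNA kit, per the labels' protocols. The table deposited by the authors holds whole-number counts of reads for each gene symbol, not normalized. The submitters' processing notes name GRCm38, also called mm10. No aligner, counter or strand setting is given in the sources used here. Groups came from the titles, and columns were matched to samples by their descriptions.

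Genes were filtered with filterByExpr (18927 of 34714 rows kept, with 99.96% of counts), scaled by TMM and compared with edgeR 4.0.16 (quasi-likelihood F test, robust, R 4.3.3). P-values were adjusted by Benjamini-Hochberg over all tested genes, with a threshold of 0.05. SE is the log2 fold change over the root of F. Log2 CPM used a prior count of 2. DESeq2 1.42.0 and limma 3.58.1 were alternatives, with other scalings and filters, the replicate block, a loess length trend removed (lengths for 89.7% of tested genes) and libraries left out. The pipeline was tested on simulated data. Members and lists were chosen with earlier results of these data known. Named genes were the members, the 2 smallest p at a mean of at least 1 CPM per related list, and the 5 most alike.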

Additional observations from a re-analysis of the deposited data

How the results depend on the processing

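Of 144 values of the 9 genes under 16 alternatives, 142 kept their direction. The exceptions were Mfap2 at -0.13 without replicate 3 of either group and Eln, which ran from -0.01 to 0.41 with one library left out and was lowest without knockout replicate 2. The cause was not tested. The median of the 9 genes, 0.51 with all libraries, was 0.074 without replicate 3 of either group. Of the members, 2 were called by the DESeq2 Wald test, which called 34 genes higher and 28 lower. Limma-voom called 1 higher and 2 lower, no filter 1 higher and 1 lower, and the replicate block 1 higher. Without replicate 3 of either group 1 was higher, and with one library left out 0 to 1 were. Same-numbered libraries did not deviate together (r = -0.282, 0.179 and -0.288 for numbers 1, 2 and 3), so the numbers were not taken to pair the samples, and the replicate block called 0 members. By CPM in place of CPM per kb, Fbln5 ranked 1 and Fbn1 3 in the knockout. The counting error of the 9 genes was 0.941% to 6.42%. For Fbn2 in the wild type it was 6.42%, above the coefficient of variation of 3.47% between libraries; for each other gene and group it was below that variation.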
